A study of Mus musculus with 18 samples.

Results

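The comparison described here sets all 9 arrays of macrophages without tristetraprolin (KO) against all 9 arrays of wild-type (WT) macrophages, so it uses 18 of the 18 arrays of the series. The cells were grown from bone marrow of C57Bl/6 mice in medium with M-CSF, the growth factor that drives macrophage formation, and were either WT or TTP-/-. All of them, in both genotypes, received lipopolysaccharide (LPS) for 3 h, and were then moved to medium that stopped transcription with actinomycin D and inhibited the p38 kinase with SB203580. RNA was taken after 0, 45 or 90 min in that medium, with 3 arrays for each genotype and time. The members are thus arrays, chosen by their genotype label, and the measure is the KO minus WT difference averaged over the 3 times. It asks which mRNAs stood at another level in the KO cells whatever the time after the block. No untreated cells and no cells without the inhibitor were in the comparison, and the labels give neither the deleted part of the gene nor the number of animals, so the p-values reflect only how far these arrays spread, which may be technical.

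Tristetraprolin (TTP, encoded by Zfp36) binds AU-rich elements in the untranslated 3′ end of mRNAs, many of them for cytokines, and recruits deadenylases that start their decay. Kinase p38 signalling restrains this activity in LPS-treated macrophages. A loss of TTP can therefore change an mRNA directly, through its decay, or through the cytokines and regulators whose mRNAs are stabilised. An average over times holds both kinds of difference and does not separate them.

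Expression is given as log2 of the array intensity, with the brightest array row for each gene symbol. The model held genotype, time and the sample series. Sample numbers in the titles fall into a low run (series A, 6 arrays, replicate 3 of each group) and a high run (series B, 12 arrays, replicates 1 and 2), and the labels do not say what the runs are. On the leading principal component (29.0% of the variance) series A lay at 11.97 or above and series B at -5.76 or below, so the runs stood apart and each result was also taken within them. Array medians were intensities of 7.41 to 8.19, and the number of arrays limits the precision. The cells carried macrophage markers. Adgre1, which encodes the macrophage antigen F4/80, had a median log2 intensity of 10.52 in WT and 10.68 in KO, with a difference of 0.22 ± 0.07 (SE) that missed the threshold (limma adjusted p = 0.0794). Summed intensity over 24 macrophage identity genes ran from 18188 to 23053 in WT and from 18227 to 23034 in KO, and 6 of the 24 were higher and 1 was lower in the test of genotype. In RNA from a whole culture, fewer cells of a type and less RNA per cell cannot be told apart.

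Of 10258 genes tested, 339 were higher in KO (3.30%) and 198 lower (1.93%), which is 537 in all or 5.23% (limma, Benjamini-Hochberg adjusted p below 0.05). Most differences were small. The median was a log2 difference of 0.48 among the higher genes and -0.44 among the lower, and 24 genes were higher and 5 lower by a log2 of 1 or more. Each KO array can be set against the WT array of the same time and replicate number, which gives 9 matched pairs. In all 9 pairs 229 of the higher genes were higher and 100 of the lower genes were lower. Among all tested genes, the called ones included, 454 (4.43%) had 1 direction in all 9 pairs. The called genes were chosen by the average of these same arrays, so the pair counts describe them and test nothing. The 9 KO and the 9 WT arrays did not overlap at all for 17 higher and 10 lower genes, against 28 of all 10258 tested. This count, too, is of genes chosen by the same arrays.

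A called gene was described as steady when its difference had the same sign at 0, 45 and 90 min, its smallest size was at least 50% of its largest, and the interaction of genotype with time had an unadjusted p of 0.05 or more. By this description 199 higher and 106 lower genes were steady. Among all tested genes, called or not, 8.30% had this shape. The median difference of the higher genes was 0.46 at 0 min, 0.43 at 45 min and 0.57 at 90 min. For the lower genes it was -0.50, -0.47 and -0.35. Both sets were chosen by an average that includes the 0 min arrays, so these medians describe the sets and test nothing. The interaction itself passed the threshold for 3 genes (0.0292%), all of them called higher. They were Tnf, Cxcl1 and Cxcl2. Among all tested genes 339 had an unadjusted interaction p under 0.05 in limma, with 21 of the higher and 14 of the lower genes among them. Those 339 are no more than a cut at 0.05 passes by chance, so they do not mark a set of genes that changed with time. An interaction that misses the threshold does not show that a difference was equal at the 3 times.

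**Figure D1:**
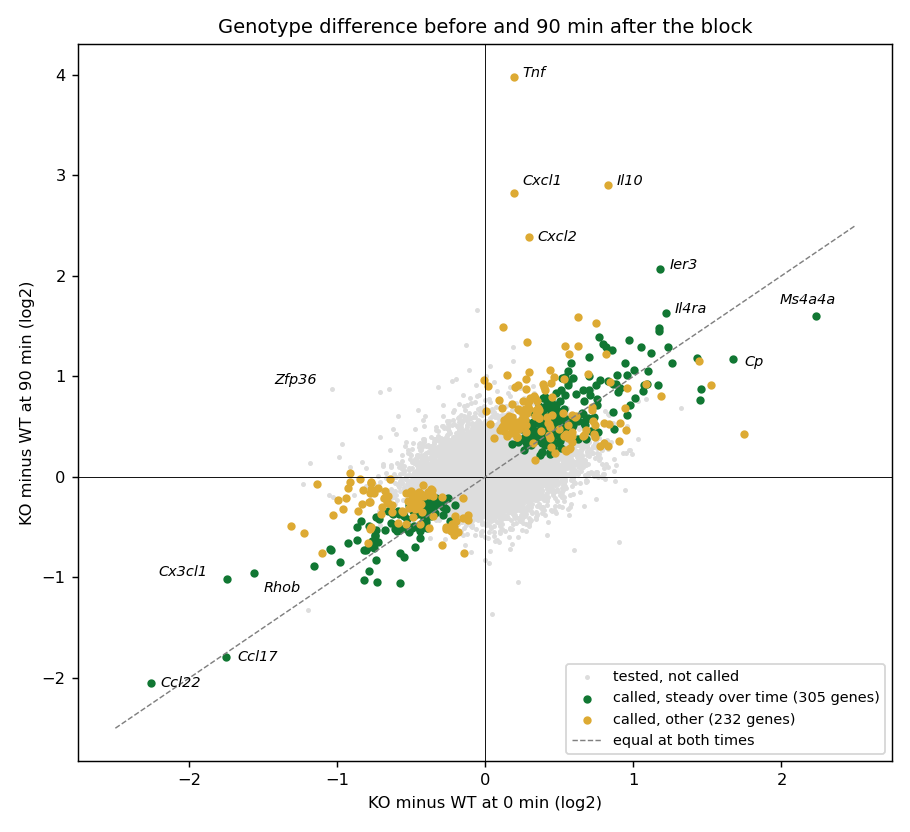
KO minus WT difference (log2) at 0 min on the horizontal axis and at 90 min on the vertical axis for each of the 10258 tested genes. The 305 genes described as steady (green) lie along the line of equal differences, the other 232 called genes are in yellow, and Tnf, Cxcl1, Cxcl2 and Il10 stand far above the line.

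Single times gave far fewer calls than the average over them. At 0 min alone 23 genes were higher (0.224%) and 13 lower (0.127%), at 45 min 16 were higher (0.156%) and 12 lower (0.117%), and at 90 min 83 were higher (0.809%) and 7 lower (0.0682%). Of the 537 genes, 261 higher and 177 lower ones were called at no single time. At each of the 3 times 7 genes were called higher and 3 lower. The higher ones were Apoe, Il4ra, Mllt11, Pfkfb3, Sema4c, Pdpn and Pla2g7, and the lower ones were Ccl22, Ccl17 and Nr4a3.

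The largest lower differences were in chemokines, the secreted proteins that direct the movement of leukocytes. Ccl22 and Ccl17 encode the ligands of the receptor CCR4, which draw regulatory and helper T cells, and Cx3cl1 encodes fractalkine, the ligand of CX3CR1. The 3 genes are neighbours among the tested genes of chromosome 8. Their promoter windows are shown because the 3 genes were lower together. They are RefSeq sequences of GRCm38.p6, each on the + strand, at chr8:94745434-94745733, chr8:94771930-94772229 and chr8:94810203-94810502. Each runs 5′ to 3′ from 250 bases before to 50 bases after the annotated start. Capitals mark matches, on either strand, to any of 4 motifs that were searched: TGANTCA for AP-1, TTCNNNGAA for STAT, the kappaB consensus by its name, and TATAAA for the TATA box.
Ccl22: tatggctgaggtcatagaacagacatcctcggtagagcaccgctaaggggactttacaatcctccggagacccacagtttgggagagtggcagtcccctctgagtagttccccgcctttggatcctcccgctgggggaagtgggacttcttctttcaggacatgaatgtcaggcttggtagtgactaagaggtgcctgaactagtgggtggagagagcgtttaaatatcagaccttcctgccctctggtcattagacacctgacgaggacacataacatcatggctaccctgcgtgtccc
Cx3cl1: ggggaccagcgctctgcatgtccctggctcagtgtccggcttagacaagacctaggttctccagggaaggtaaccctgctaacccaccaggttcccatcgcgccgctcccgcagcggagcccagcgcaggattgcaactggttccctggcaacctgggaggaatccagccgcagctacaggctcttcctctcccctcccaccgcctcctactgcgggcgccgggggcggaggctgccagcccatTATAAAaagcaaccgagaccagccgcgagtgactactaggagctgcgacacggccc
Ccl17: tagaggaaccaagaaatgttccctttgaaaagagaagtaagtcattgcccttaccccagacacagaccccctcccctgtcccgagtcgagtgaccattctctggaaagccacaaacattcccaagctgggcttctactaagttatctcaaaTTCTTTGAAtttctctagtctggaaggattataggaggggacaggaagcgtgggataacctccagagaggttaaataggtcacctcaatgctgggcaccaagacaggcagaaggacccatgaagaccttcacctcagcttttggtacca
Cx3cl1 held 1 TATA match and Ccl17 held 1 STAT match, and no letters of the other motifs searched were in these windows. A TATA match was in 6.94% of 8360 promoters of tested genes, in 6.62% of 287 of higher genes and in 14.7% of 170 of lower genes, which include histone genes. A STAT match was in 6.75%, 8.01% and 4.71%, an AP-1 match in 5.0%, 4.88% and 10%, and a kappaB match in 10.4%, 11.1% and 13.5%. A match is a description of letters and not a measured binding site.

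Ccl22 had log2 intensities of 7.37 to 7.81 (median 7.67) on the 9 WT arrays and 4.16 to 6.29 (median 5.85) on the 9 KO arrays. No KO array reached the lowest WT array. Its difference was -2.14 ± 0.17 (SE, n = 9 arrays a genotype; limma adjusted p = 2.41e-07), 4.39-fold lower in KO. It was -2.26 at 0 min, -2.10 at 45 min and -2.05 at 90 min. The 3 KO arrays of series A were the lowest, so that the difference was -3.0 in series A and -1.70 in series B.

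Ccl17 lay between 4.25 and 7.11 (median 6.49) in WT and between 2.68 and 5.50 (median 4.72) in KO. The ranges overlap because both genotypes were lower in series A, while in each of the 9 pairs the KO array was lower, with pair differences from -2.44 to -1.0. The difference was -1.86 ± 0.16 (limma adjusted p = 7.97e-07), and it was -1.85 in series A and -1.86 in series B. Cx3cl1 lay between 5.10 and 6.77 in WT and between 3.10 and 5.50 in KO, with a difference of -1.35 ± 0.15 (limma adjusted p = 1.29e-05). Its differences were -1.75, -1.29 and -1.02 at 0, 45 and 90 min, all in 1 direction, and it met the description of steady. The next tested gene in this run, Ciapin1, which acts in the assembly of iron-sulphur proteins, was lower by a smaller amount (-0.42 ± 0.10; limma adjusted p = 0.0116). Cx3cr1, the fractalkine receptor, was also lower, at -0.81 ± 0.19 (limma adjusted p = 0.0135), though the arrays of series A gave -1.74 and those of series B gave -0.34, without a call there.

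Across 19 tested chemokines 3 were higher, 4 were lower and the median difference was -0.03, beside 0.006 over all genes. The higher ones were Cxcl1 and Cxcl2, which draw neutrophils, and Ccl12, a ligand of CCR2 (0.82 ± 0.18; limma adjusted p = 0.0110). The fourth lower one was Cxcl3, another neutrophil attractant (-0.45 ± 0.10; limma adjusted p = 0.00979). With ribosomal protein genes as the reference, 8 chemokines were called higher and 4 lower, and the median turned to 0.14.

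**Figure D2:**
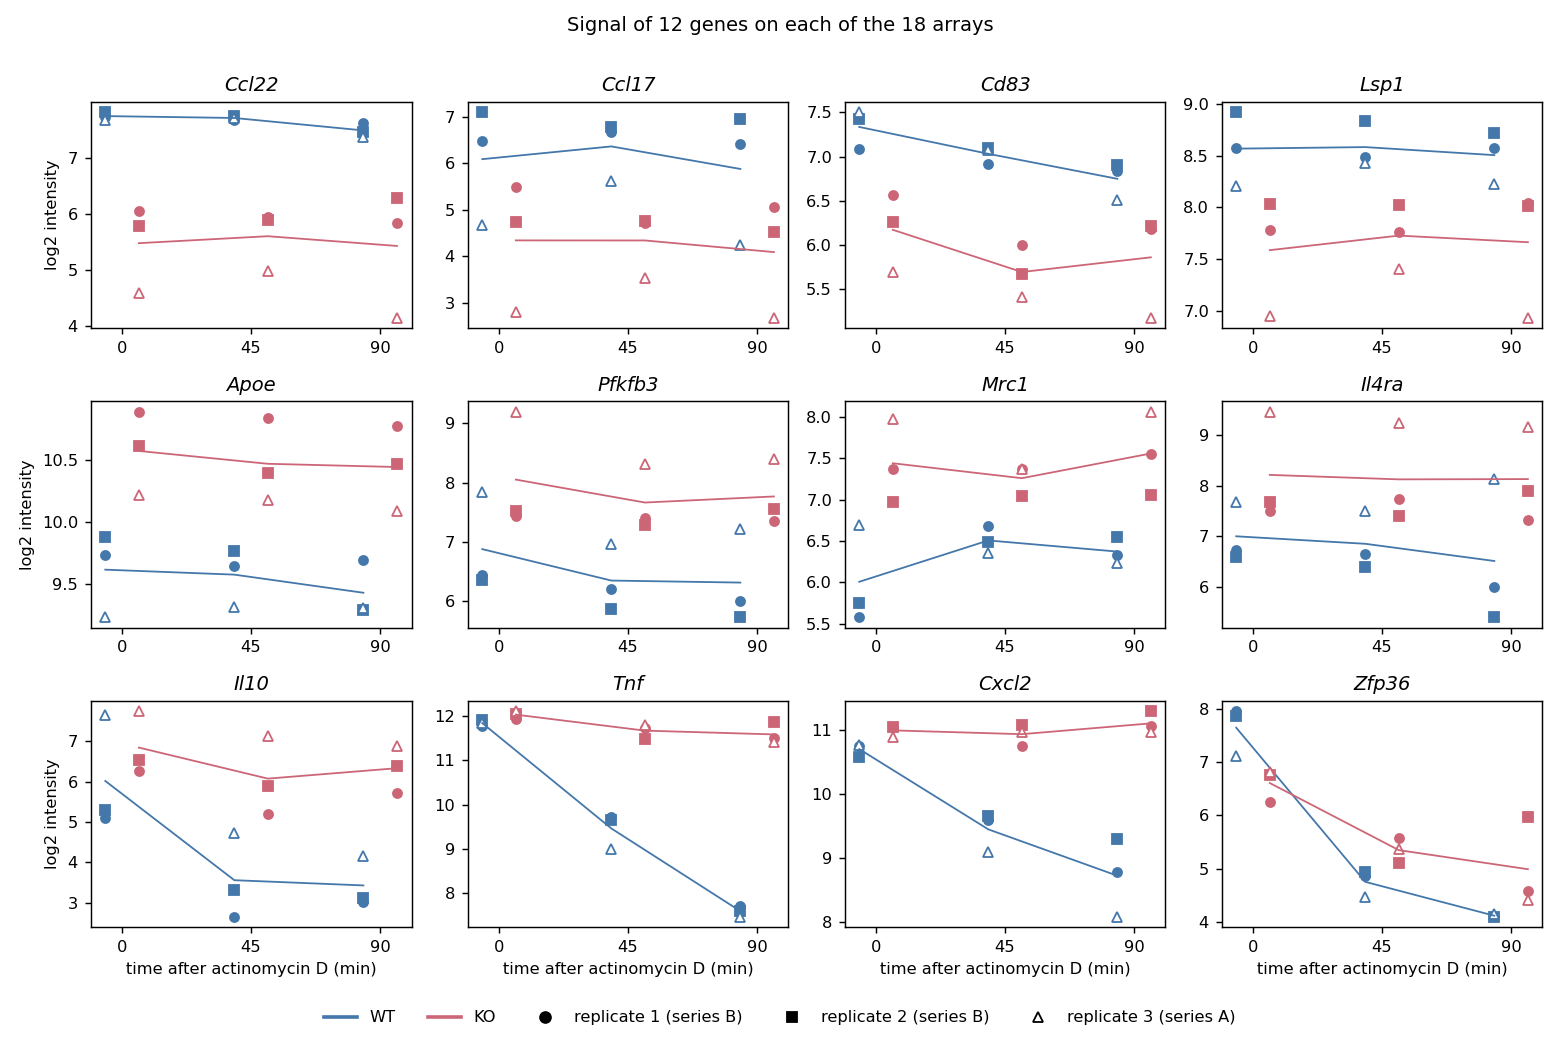
Log2 intensity (vertical axes) of 12 genes on each of the 18 arrays by time after actinomycin D in min (horizontal axes), WT in blue and KO in red, with lines through the group means. Ccl22, Lsp1, Apoe and Mrc1 have no overlap between the 9 WT and the 9 KO arrays. Tnf and Cxcl2 lie close at 0 min, with KO slightly above WT, and move further apart later.

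Several surface proteins of antigen-presenting cells were lower. Cd83, a marker of activated dendritic cells and macrophages, ranged from 6.51 to 7.50 in WT and from 5.18 to 6.57 in KO. The genotypes were separated at each of the 3 times, with only a small overlap between a KO array at 0 min and a WT array at 90 min. Its difference was -1.13 ± 0.13 (limma adjusted p = 1.29e-05). H2-Eb1 and H2-Aa, neighbouring genes of class II antigen-presenting molecules, differed by -0.65 ± 0.10 (limma adjusted p = 0.000638) and -0.53 ± 0.12 (limma adjusted p = 0.0105). Replicate 1 held the largest pair differences, -1.28 to -0.96 for H2-Eb1 and -1.14 to -1.03 for H2-Aa. In the other pairs they were -0.91 to -0.17 and -0.46 to 0.04. Neither gene was called without replicate 1 or without the series in the model. Cd40, the receptor for a T cell ligand, differed by -0.48 ± 0.10 (limma adjusted p = 0.00504). Of 17 tested antigen presentation genes these 3 were lower, none was higher and the median was -0.04. With ribosomal protein genes as the reference 2 were higher and 2 lower, and the median was 0.12. Cd207, which encodes the lectin langerin, was lower by -0.82 ± 0.17 (limma adjusted p = 0.00669), but its value was -1.65 in series A and only -0.41 in series B, where it was not called. Summed intensity of 5 dendritic cell markers ran from 149 to 254 in WT and from 175 to 230 in KO. None of the 5 was called by limma, nor did any have an unadjusted p under 0.05, and Itgax, which encodes the integrin CD11c, differed by -0.23 ± 0.14 (limma adjusted p = 0.426).

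The other large lower differences were in genes of varied roles. Lsp1, an actin-binding protein of leukocytes, had intensities of 8.21 to 8.92 (median 8.57) in WT and 6.93 to 8.04 (median 7.78) in KO. The groups did not overlap, and the differences of -0.98, -0.86 and -0.84 at the 3 times averaged to -0.90 ± 0.10 (limma adjusted p = 1.38e-05). Nr4a3, an orphan nuclear receptor, ranged from 4.96 to 5.67 in WT and from 3.59 to 4.62 in KO, again without overlap, for a difference of -0.96 ± 0.10 (limma adjusted p = 4.28e-06). Rhob, a small GTPase, differed by -1.29 ± 0.16 (limma adjusted p = 3.22e-05). Its mRNA fell by 1.30 on the log2 scale from 0 to 90 min over both genotypes, and its difference was -1.56, -1.35 and -0.95 at the 3 times. Lad1, an anchoring filament protein, and Cd34, a sialomucin of progenitor cells, did not overlap either (-0.83 ± 0.10 and -0.77 ± 0.11). Cd34 lay at 3.08 to 3.92 in WT and at 2.09 to 3.01 in KO. Genes were tested if their highest group mean reached 3.03, and Cd34 passed this limit only through WT. Its lack of overlap straddles that limit and adds no support. Shisa3 (-0.84 ± 0.13) was lower in all 9 pairs, as were Cd24a (-0.76 ± 0.16) and Dapp1, an adaptor of phosphoinositide signalling (-0.75 ± 0.17). Cd24a, like Cd34, passed the limit for testing only through WT, so its shared direction in the pairs adds no support. Within series B Cd24a and Dapp1 were not called. Mrps12, a mitochondrial ribosomal protein, did not overlap between genotypes (-0.92 ± 0.13) but had -1.22 at 0 min and -0.56 at 90 min, and -0.43 in series A, where it was not called, against -1.17 in series B. Rny1, a small non-coding RNA, differed by -0.90 ± 0.20, with 1 pair far below the others.

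The higher genes included receptors for cytokines. Il4ra, the receptor chain shared by IL-4 and IL-13, ranged from 5.39 to 8.14 (median 6.64) in WT and from 7.32 to 9.47 (median 7.74) in KO. The ranges overlap because series A was brighter in both genotypes, and in every one of the 9 pairs KO was higher, by 0.78 to 2.51. The difference was 1.37 ± 0.15 (limma adjusted p = 9.02e-06), 2.59-fold, with 1.22, 1.28 and 1.63 at 0, 45 and 90 min. Without the series in the model Il4ra was not called (limma adjusted p = 0.0739). The next tested gene, Il21r, the IL-21 receptor, was higher by 0.81 ± 0.14 (limma adjusted p = 0.0011). Csf3r, the receptor for G-CSF, ranged from 3.56 to 4.52 in WT and from 4.53 to 5.65 in KO. Its groups came close without overlap, and its difference was 1.00 ± 0.11 (limma adjusted p = 1.5e-05). Of 21 tested chemokine and cytokine receptors, Il4ra and Csf3r were higher, and Cx3cr1 and Ccrl2, an atypical receptor that binds chemerin (-0.35 ± 0.07), were lower.

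Scavenger and phagocytic receptors, by which macrophages bind particles, dying cells and antibody-coated targets, held many calls. Of 22 tested 9 were higher, 1 was lower and the median difference was 0.26. Over all tested genes 3.30% were higher and 1.93% lower, and the median was 0.006. Mrc1, the mannose receptor CD206, ranged from 5.58 to 6.69 (median 6.35) in WT and from 6.97 to 8.06 (median 7.37) in KO. The groups did not overlap, and the difference was 1.12 ± 0.15 (limma adjusted p = 8.28e-05), 2.17-fold. Mertk and Axl encode related receptor kinases that recognise dying cells, and they lay on opposite sides. Mertk was higher by 0.76 ± 0.09 (limma adjusted p = 3.22e-05), from 3.51 to 3.92 in WT to 4.10 to 4.86 in KO. Axl was lower by -0.73 ± 0.12 (limma adjusted p = 0.000585), from 5.57 to 6.84 in WT to 5.30 to 5.59 in KO. Pros1 encodes protein S, which bridges Mertk to phosphatidylserine, and it was higher by 0.54 ± 0.10 (limma adjusted p = 0.00168) without overlap.

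Of the 4 tested receptors for the constant part of antibodies 3 were higher. Fcgr4 differed by 0.67 ± 0.11, Fcgr3 by 0.53 ± 0.09 and Fcgr1 by 0.38 ± 0.09 (limma adjusted p = 0.000933, 0.000916 and 0.0112), each in all 9 pairs, while Fcgr2b, the inhibitory receptor, was not called (0.21 ± 0.09; limma adjusted p = 0.230). Itgam, the integrin chain CD11b, differed by 0.48 ± 0.10. Siglec1, a sialic acid receptor, differed by 0.95 ± 0.26, but its value was 1.81 in series A and 0.53 in series B, where it was not called. Colec12 (0.72 ± 0.21) and Cd5l (0.60 ± 0.11) complete the 9. Within series B alone 4 of the 22 were higher and 1 lower, and the median was 0.21. The median stayed above 0 with quantile normalization (0.24), median centring (0.22) and ribosomal protein genes as the reference (0.42).

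Of 15 tested complement and coagulation genes 7 were higher and none was lower, with a median of 0.29, beside 3.30% higher among all tested genes. Cfb, factor B of the alternative pathway, differed by 0.65 ± 0.11 (limma adjusted p = 0.000672) and Cfp, properdin, by 0.42 ± 0.12 (limma adjusted p = 0.0387). C1qa, part of the first complement component, differed by 0.49 ± 0.10 (limma adjusted p = 0.00424), at 0.18, 0.57 and 0.72 at the 3 times. Serpinb2, an inhibitor of urokinase, differed by 1.06 ± 0.21 (limma adjusted p = 0.00337), at 1.83 in series A and at 0.68 in series B, where it was not called. Urokinase itself, Plau (0.67 ± 0.11), and its receptor Plaur (0.40 ± 0.10) had differences of 0.15 and 0.09 at 0 min and 1.01 and 0.76 at 90 min. The median was 0.30 in each series alone, with 6 members higher in series A and 4 in series B.

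**Figure D3:**
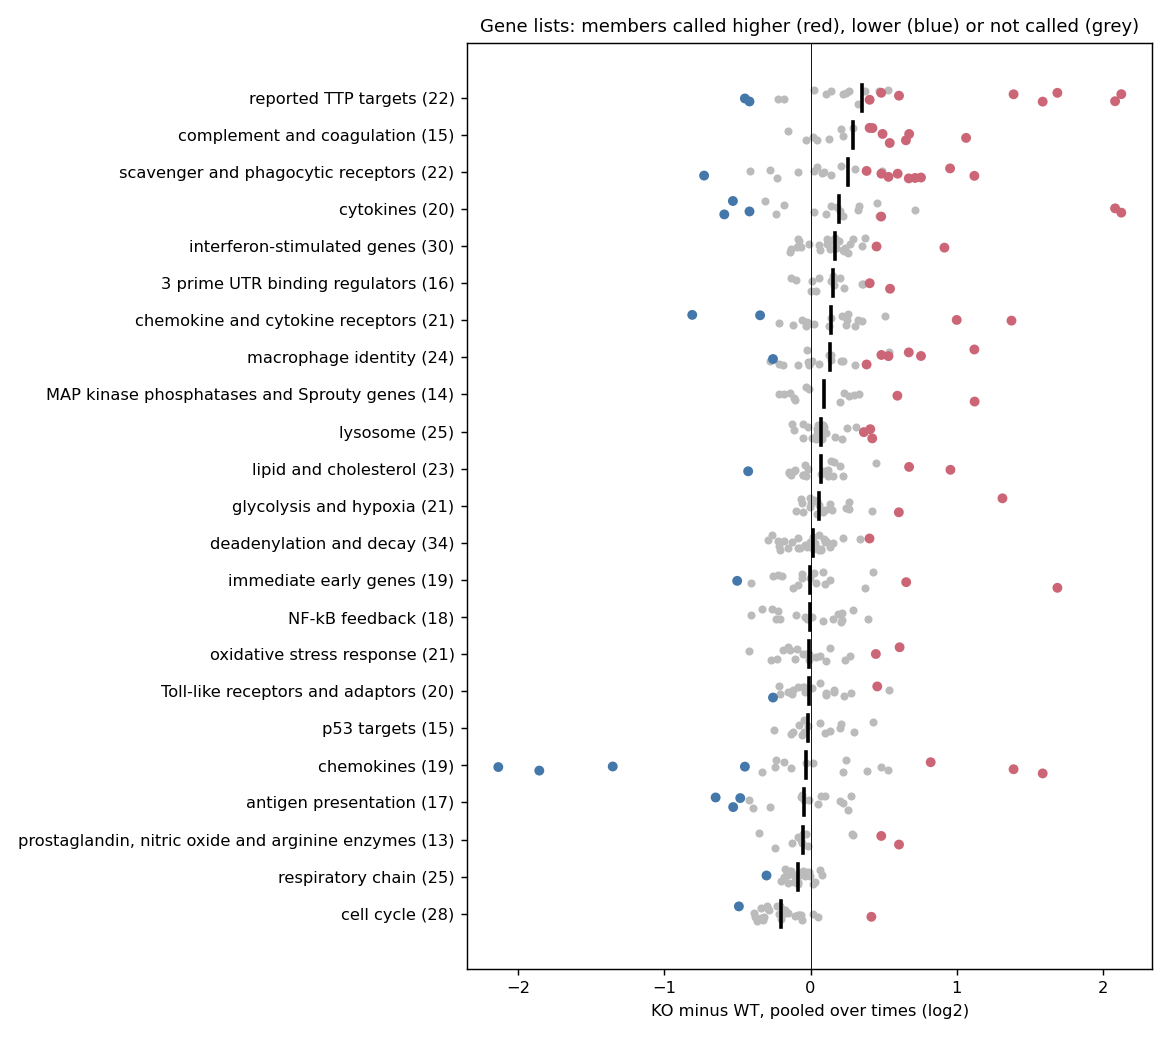
KO minus WT difference (log2, horizontal axis) of each tested member of the 23 gene lists with at least 10 tested genes (number in brackets), called members in red or blue and the list median as a black bar. The calls spread over most lists, with 9 of 22 scavenger and phagocytic receptors and 7 of 15 complement and coagulation genes higher. Of all tested genes 3.30% were higher.

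Apoe, which carries lipid out of macrophages as apolipoprotein E, was among the steadiest of the higher genes. It ranged from 9.23 to 9.88 (median 9.64) in WT and from 10.09 to 10.89 (median 10.47) in KO. The groups did not overlap at any time. The difference was 0.96 ± 0.09 (limma adjusted p = 1.47e-06), 1.94-fold, with 0.96, 0.90 and 1.02 at the 3 times and 0.87 in series A and 1.00 in series B. Abca1, the transporter that loads lipid onto such particles, was higher by 0.67 ± 0.11 (limma adjusted p = 0.000825), and Mylip, a ligase that marks the LDL receptor for degradation, was lower by -0.43 ± 0.12 (limma adjusted p = 0.0451). Mylip was not steady, at -0.42, -0.78 and -0.08 at the 3 times, and was not called within series B. Without the series in the model neither Abca1 nor Mylip was called. The other 20 of 23 tested lipid and cholesterol genes were not called, and the list median was 0.07.

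Pfkfb3, an enzyme that makes the activator of phosphofructokinase and so speeds glycolysis, had the smallest adjusted p of all genes named here. It ranged from 5.73 to 7.84 in WT and from 7.28 to 9.20 in KO, with series A brighter in both. In the 9 pairs KO was higher by 0.99 to 1.82, an average of 1.31 ± 0.10 (limma adjusted p = 2.12e-07) or 2.48-fold. Of 21 tested glycolysis and hypoxia genes only Pfkfb3 and Adm, the vasodilator peptide adrenomedullin (0.60 ± 0.16; limma adjusted p = 0.0346), were called, and the median was 0.06.

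Further steady higher genes had varied roles. Ms4a4a, a 4-pass membrane protein of macrophages, differed by 1.72 ± 0.20 (limma adjusted p = 2.19e-05), with 2.23, 1.33 and 1.60 at the 3 times. Sema4c, a semaphorin, differed by 1.33 ± 0.12 and was separated at each time. Cp, the copper-carrying ferroxidase ceruloplasmin, ranged from 3.97 to 5.25 in WT and from 5.46 to 6.36 in KO without overlap (1.26 ± 0.17). Gbgt1, a glycosyltransferase, did not overlap either (1.25 ± 0.14). Nxpe5 differed by 1.30 ± 0.16. Ifi213, an interferon-inducible gene, differed by 1.10 ± 0.20, with 0.42 in series A, where it was not called, and 1.44 in series B. Hmox1, haem oxygenase, and Lcn2, an iron-siderophore binding protein that neutrophils also make, differed by 0.61 ± 0.13 and 0.82 ± 0.12. Hmox1 was at 1.06 in series A and at 0.38 in series B, where it was not called. The summed intensity of the 3 tested neutrophil genes, Lcn2 among them, ran from 105 to 269 in WT and from 146 to 496 in KO, and the other two were not called; their part in the Lcn2 difference was not tested.

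The reported TTP targets are a list taken from the literature. Of 22 tested, 8 were higher, 2 were lower and 12 were not called, with a median of 0.35. The shares over all tested genes were 3.30% higher and 1.93% lower. For 3 of the higher ones the interaction with time passed the threshold. Tnf was close between genotypes at 0 min, with 11.77 to 11.90 in WT and 11.94 to 12.10 in KO (difference 0.19), and differed by 2.20 at 45 min and 3.98 at 90 min. Its average of 2.13 ± 0.36 therefore describes no single time (interaction, limma adjusted p = 3.08e-07). Cxcl1 went from 0.19 through 1.75 to 2.83 (interaction, limma adjusted p = 0.00506) and Cxcl2 from 0.29 through 1.49 to 2.38 (interaction, limma adjusted p = 0.0128). Il10, the anti-inflammatory cytokine, went from 0.83 through 2.52 to 2.90, with an unadjusted interaction p of 0.000122, which missed the adjusted threshold.

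Ier3, an early response gene, was the member of that list that met the description of steady. It ranged from 3.51 to 6.10 (median 4.41) in WT and from 5.31 to 8.04 (median 6.26) in KO, was separated at each time, and differed by 1.69 ± 0.18 (limma adjusted p = 9.02e-06), 3.22-fold. Its differences were 1.18, 1.81 and 2.07, so it was already apart at 0 min, although its mRNA fell by 1.77 (log2) from 0 to 90 min in both genotypes together. Ptgs2, the inducible cyclooxygenase, differed by 0.61 ± 0.11, with 0.39, 0.50 and 0.93 at the 3 times. Pla2g4a, its neighbour among the tested genes and the phospholipase that supplies its substrate, differed by 0.48 ± 0.12. Il23a was higher (0.48 ± 0.11). The lower members were Il12b, the chain shared by IL-12 and IL-23, at -0.42 ± 0.12 (limma adjusted p = 0.0449), and Cxcl3. Among other cytokines Il18 (-0.59 ± 0.16) and Csf1, which encodes M-CSF (-0.53 ± 0.11), were lower.

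Zfp36 itself did not differ past the threshold on average (0.14 ± 0.25; limma adjusted p = 0.814). WT arrays ran from 7.12 to 7.95 at 0 min and from 4.10 to 4.15 at 90 min, and KO arrays from 6.25 to 6.81 and from 4.42 to 5.97. The difference was -1.04 at 0 min, 0.59 at 45 min and 0.87 at 90 min, so the average cancels values of opposite sign. The value is 1 summary over the gene's probes and the deleted part is not given in the sources used here, so this signal does not check the genotype labels. Among 16 tested genes of proteins that bind the untranslated 3′ ends of mRNAs, Zfp36 included, Zfp36l2, a relative of TTP, was higher by 0.40 ± 0.11 (limma adjusted p = 0.0308) and Zc3h12d, a relative of the ribonuclease regnase, by 0.54 ± 0.11 (limma adjusted p = 0.00612). Of 34 deadenylation and decay genes only Cnot8, a deadenylase subunit, was called (0.40 ± 0.08; limma adjusted p = 0.00612).

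The change from 0 to 90 min over both genotypes is not used by the genotype average, but it blends unlike falls where the genotypes differed in them. Its median was 0.03 for the higher genes, -0.08 for the lower genes and 0.02 for all tested genes. mRNAs that fell by a log2 of 1 or more and were called in that test were 98 of all tested (0.955%), 8 of the 339 higher genes (2.36%) and 17 of the 198 lower genes (8.59%). A gene that fell in WT alone can miss this count, as Cxcl2 did. It ran from 10.59 to 10.77 at 0 min and from 8.08 to 9.31 at 90 min in WT. In KO it ran from 10.90 to 11.05 and from 10.97 to 11.30. These shares therefore do not compare the stability of the higher and lower genes. The 8 higher ones were Tnf, Il10, Cxcl1, Ier3, Edn1, Map3k8, Zfp281 and Dusp1, a phosphatase that switches off p38. Dusp1 fell by 3.19 over the time course and was nevertheless higher in KO by 0.97, 1.03 and 1.36 at the 3 times (average 1.12 ± 0.24; limma adjusted p = 0.0079), in 8 of 9 pairs. Its pair differences spread from -0.28 to 2.70. Dusp1 was not called within series B, without replicate 1 or without the series in the model.

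Histone genes made up 10 of the 17 lower genes that fell with time. This group was singled out after its values were seen. Of 28 tested histone genes, 11 were lower, none was higher, and the median difference was -0.29, beside 1.93% lower among all tested genes. Among the lower ones only H4c6, H2bc3 and H2az2 met the description of steady. Others were small by 90 min, such as H2bc18 (-1.13, -0.55 and -0.07 at the 3 times) and H2bc14 (-0.93, -0.66 and -0.11). H4c6 differed by -0.89 ± 0.18 (limma adjusted p = 0.00543), H1f5 by -0.74 ± 0.19 (limma adjusted p = 0.0251) and H2bc3 by -0.68 ± 0.17 (limma adjusted p = 0.0230). Several are near-identical copies, so their probes may share signal. In series A the median was -0.63 with 15 called lower, and in series B it was -0.25 with none called, where limma gave 10 lower at an unadjusted p under 0.05. Under the other scalings the median lay between -0.33 and -0.12. Cell cycle genes had a median of -0.20, and 3 of 28 had a positive difference. Only the mitotic cyclin Ccnb2 was called lower (-0.49 ± 0.11; limma adjusted p = 0.0132) and the G1 cyclin Ccne1 higher (0.42 ± 0.10; limma adjusted p = 0.0203). Their median was -0.52 in series A, with 16 called lower, and -0.10 in series B, with none called and 3 lower at an unadjusted p under 0.05 in limma. Within series B 1767 of all 10258 tested genes had such a p, in either direction.

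Other lists had few calls. Of 30 tested interferon-stimulated genes 2 were higher, Iigp1 (0.92 ± 0.23) and Irf7 (0.45 ± 0.13), with a median of 0.17 that was 0.27 in series B and -0.06 in series A. Iigp1 was at 0.17 in series A, where it was not called, and at 1.29 in series B, and Irf7 at 0.69 and at 0.33, with no call in series B. No gene of 18 NF-kB feedback regulators or of 15 p53 targets was called in either direction by limma at the adjusted threshold, where 5 and 3 had an unadjusted p under 0.05. Among all 10258 tested genes 1865 had such a p, so these numbers do not set the lists apart. The largest differences in these lists were those of Nfkbid (-0.41 ± 0.15) and Tnip3 (0.39 ± 0.12), and Mdm2 (0.43 ± 0.14). Of 25 lysosome genes the proteases Ctsc (0.42 ± 0.09) and Ctsl (0.36 ± 0.07) and the phosphatase Acp5 (0.41 ± 0.11) were higher. Of 25 respiratory chain genes only Ndufb8 was called (-0.31 ± 0.09), and that call was lost with the replicate number as a block, without the series in the model and within series B.

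Position on the chromosome was also described. Zfp36 lies on chromosome 7, and of the 100 tested genes nearest to it, 50 on each side by gene order, 10 were called (10%), 4 higher and 6 lower. Of the 592 tested genes of the chromosome beyond 100 on each side, 29 were called (4.9%). Gmfg, an actin regulator 4 tested genes away, was higher by 0.70 ± 0.10 (limma adjusted p = 0.000154). Mrps12 is 9 genes away and Axl is 26. Alkbh6 was lower by -0.66 ± 0.10 (limma adjusted p = 4e-04) and Pou2f2, the transcription factor Oct-2, was higher by 0.57 ± 0.10 (limma adjusted p = 0.00103). Apoe lies 69 tested genes away on the same chromosome. Across the genome, 40 of 10218 pairs of adjacent tested genes were both called in the same direction, 28 higher and 12 lower, and 19 in opposite directions. Over all tested genes 3.30% were higher and 1.93% lower. Whether called genes lay together more often than these shares would give was not tested. The chemokine run on chromosome 8, Il4ra with Il21r, Fcgr4 with Fcgr3, and H2-Aa with H2-Eb1 are among the 40.

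**Figure D4:**
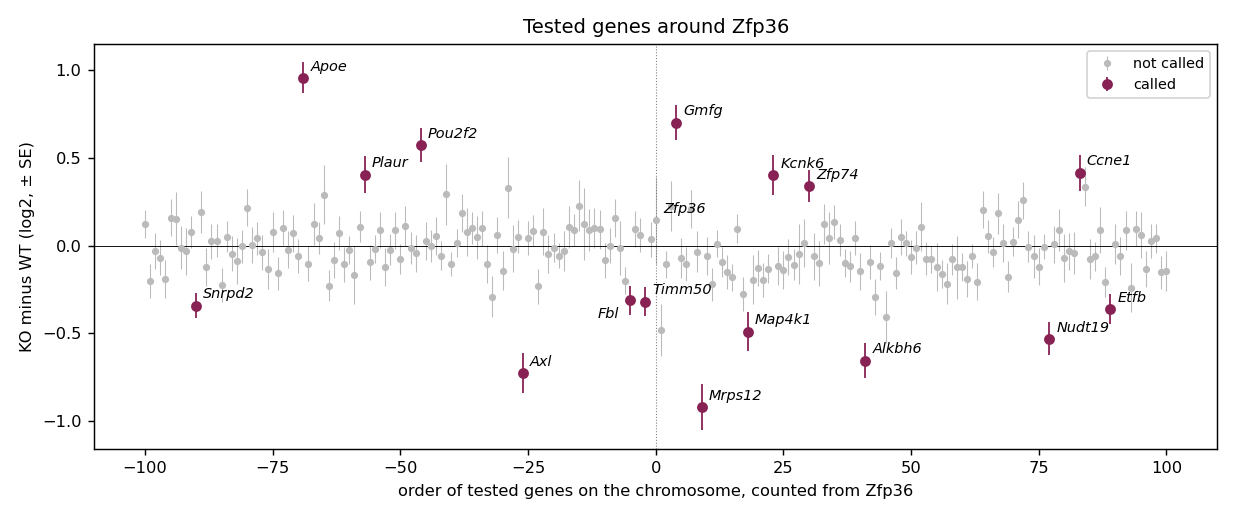
KO minus WT difference (log2, with bars of 1 SE) of the 200 tested genes nearest to Zfp36 by gene order (horizontal axis, 100 on each side) and of Zfp36 itself at 0. The 16 called genes (purple) lie on both sides of 0, with Apoe the highest and Mrps12 the lowest.

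Both runs of sample numbers gave a view of the same measure in separate arrays. In series B alone 215 genes were higher (2.10%) and 53 lower (0.517%). Of these 268 genes, 247 (92.2%) differed in the same direction in series A, whose arrays took no part in that choice, beside 55.8% of all tested genes. The 215 higher genes had a median of 0.56 in series B and 0.42 in series A, and 196 of them kept their sign. The 53 lower genes had medians of -0.61 and -0.49, and 51 kept their sign. Series A has 1 array per group, so each of its values rests on 3 arrays a genotype. Some genes named above for their average were uneven between the runs. Not called in series B were Cd40 (-0.87 in series A, -0.29 in series B), Il18 (-0.97, -0.40), Adm (1.01, 0.40), Zfp36l2 (0.66, 0.28), Zc3h12d (0.74, 0.44), Ctsc (0.61, 0.33) and Ccnb2 (-0.69, -0.39). Not called in series A were Acp5 (0.05 in series A, 0.59 in series B), Cd34 (-0.46, -0.92), Cnot8 (0.27, 0.46), Pou2f2 (0.42, 0.65), Csf1 (-0.38, -0.61) and H2-Aa (-0.38, -0.61). Shisa3 was called in both, at -1.36 and -0.58.

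**Figure D5:**
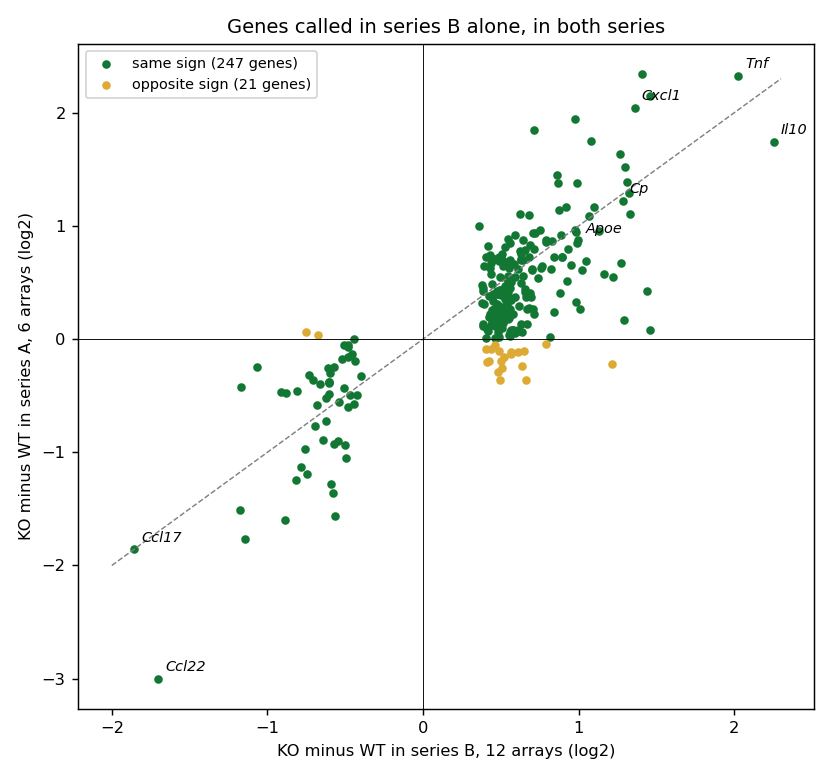
KO minus WT difference in series B (12 arrays, horizontal axis) and in series A (6 arrays, vertical axis), both log2, for the 268 genes called in series B alone, with the line of equal values dashed. The 247 genes with the same sign (green) fill the upper right and lower left, and 21 genes (yellow) have opposite signs.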

How the data were processed

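RNA was measured on Affymetrix gene-level arrays. RMA and Affymetrix Expression Console are named in the submitters' processing notes, and their versions and the genome build were not given in the sources used here. Judged by range, the deposited values were linear intensities. RMA brings arrays to a shared distribution, so levels are relative to the average mRNA. log2 was taken without an offset. Of 25138 rows, 21039 had 1 gene symbol, 1485 several and 2614 none listed; names were updated through RefSeq GRCm38.p6, 84 keeping the older symbol. The brightest row per symbol left 19454 genes, and the 10258 whose highest group mean reached 3.03 (an intensity of 8.16) were tested. limma 3.58.1 in R 4.3.3 fitted genotype, time and sample series, with Benjamini-Hochberg adjustment at 0.05, and was tested on simulated data. Errors are SE.

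Named genes were Zfp36, the 15 largest differences in each direction with all 9 pairs alike, the 10 smallest interaction p-values among called genes, up to 4 called members per list (or the 2 largest), and called genes within 50 tested genes of Zfp36. Other genes in the text were named after their values were seen. The members and lists were chosen with earlier results of these data known. The replicate numbers were taken to pair the KO and WT arrays. Same-numbered arrays deviated together from their group means at each time (correlations of 0.156 to 0.651). Replicate 3 is series A in every group, so a difference between the runs raises these values. They therefore cannot show that replicates 1 and 2 are paired within series B. No arrays held identical values. Alternatives covered blocks, scaling, filters, times, series and omitted arrays.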

Additional observations from a re-analysis of the deposited data

Results flagged for a closer look

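Over the 9 matched pairs of a named gene, 1 pair sometimes lay far from the other 8, by Dixon's criterion at 95%, which chance meets in about 1 in 20 groups. At 0 min in replicate 3, Rny1 differed by -2.94, Dapp1 by -1.54 and Ndufb8 by -0.99. At 90 min in replicate 2, Pfkfb3 differed by 1.82, Rhob by -0.059 and Gmfg by -0.079. At 90 min in replicate 3, Thy1 differed by -0.72 and Ppbp by 1.96. At 45 min, Mertk differed by 1.34 in replicate 1 and Alkbh6 by -0.064 in replicate 2. Rhob, Gmfg and Alkbh6 were thus nearly equal between genotypes in 1 pair and apart in the other 8.

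The genotype difference itself changed with time for Tnf (interaction, limma adjusted p = 3.08e-07), Cxcl1 (limma adjusted p = 0.00506) and Cxcl2 (limma adjusted p = 0.0128). In each of these genes it was smallest at 0 min and largest at 90 min.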

How the results depend on the processing

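The counts moved with the model and the arrays, beside 339 higher and 198 lower genes in the main model; the cause was not tested. Without the series 104 were higher and 60 lower, and the interaction was called for 1 gene. With means over the 3 times 99 were lower. Within series B 215 were higher and 53 lower, and within series A 578 were lower. Omitting the 0 min arrays left 77 lower, omitting 45 min 122 higher and 27 lower, and omitting 90 min 106 higher and 120 lower. Omitting a replicate number or 1 array gave 118 to 480 higher and 49 to 224 lower. Single arrays that moved a count by over 1.5 times were KO 0 min replicate 3 (217 and 113 without it), WT 45 min replicate 3 (224 and 115), KO 45 min replicate 1 (131 lower) and KO 90 min replicate 3 (125 lower).

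Scaling set the balance. Of all calls 63.1% were higher, against 55.0% with quantile normalization (356 and 291), 51.0% with median centring (312 and 300) and 95.6% with ribosomal protein genes as reference (1565 and 72), which moved the median of all genes from 0.006 to 0.17. Of the 85 called genes among the 101 chosen by rule, 26 kept their call under all alternatives. No gene was called in the opposite direction under any alternative. The replicate block, pairing by number, gave 197 lower genes, called 327 of the 339 higher and 188 of the 198 lower genes again, and changed no count by over 1.5 times. Treating the arrays of 1 genotype and number as a random block gave 376 and 216. Steady genes numbered 146 when the smallest difference had to reach 67% of the largest and 535 with the sign alone.

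Values that changed sign were all of genes not called. Zfp36 was -0.082 without the 45 min arrays, -0.22 without the 90 min arrays and -0.042 without KO 90 min replicate 2. In series A Col6a1 was 0.026, Sparc 0.098 and Uty -0.17. In series B, which is also the set without replicate 3, Il7r was 0.064, Pf4 -0.014 and Ppbp -0.0037. Over omissions of 1 replicate number or array the values reached 0.30 for Zfp36, fell to -0.24 for Il7r, and reached 0.57 for Pf4 and 0.65 for Ppbp. With ribosomal protein genes as reference Col6a1 was 0.036, Sparc 0.054, Il7r 0.043 and Thy1 0.087, and Thy1 was 0.0062 without the 90 min arrays.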
